A study of Mus musculus with 12 samples.

Results

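Apolipoproteins are the protein components of plasma lipoproteins. The deposited table held all 10 genes of the set described here, Apoa1, Apoa2, Apoa4, Apoa5, Apob, Apoc1, Apoc2, Apoc3, Apoe and Apom, which were matched by symbol. They are 10 of 24033 gene symbols in the table, and all 10 passed the filter on low values, as did 12965 symbols in all. The RNA came from whole livers of wild-type C57BL/6 female mice, given dexamethasone, a synthetic glucocorticoid, or its vehicle PBS. The 4 groups were ovariectomized females given dexamethasone at 1 mg/kg, ovariectomized females given PBS, intact females given dexamethasone at 1 mg/kg and intact females given PBS. All livers were taken after 6 h of treatment, and each group had 3 RNA-seq libraries. Neither the age of the mice nor the time since ovariectomy is given in the sources used here.

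The liver makes most circulating apolipoproteins. Apob is the scaffold of very-low-density lipoprotein (VLDL), Apoa1 and Apoa2 are the main proteins of high-density lipoprotein (HDL), and the small exchangeable C proteins and Apoe move between particles and govern how lipases and receptors handle them. Glucocorticoids act on liver genes through a nuclear receptor and are known to alter lipoprotein output, and oestrogen is known to act on hepatic lipid genes as well.

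Every library level below is a log2 value as deposited by the authors, derived from reads counted per gene and scaled across libraries. A difference is a log2 fold change, the mean of one group minus the mean of the other, with its standard error (SE) from limma fitted to all 12 libraries. A gene is said to have passed where its p, adjusted by the Benjamini-Hochberg method over the 12965 genes, was under 0.05. Whether replicates were separate animals is not given in the labels, so the p-values measure only the spread between these samples, which may be technical. In whole liver, fewer cells of a type and less RNA per cell cannot be told apart.

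Several facts about the libraries touch these results. Library medians lay between 8.82 and 8.86, and the root mean square difference between replicates was 0.17 to 0.32. The 7 hepatocyte markers measured were all tested, with albumin (Alb) at a mean of 21.79. Among them Cps1, of the urea cycle, rose by 1.38 and Fgb, a fibrinogen chain, by 0.44 with dexamethasone in ovariectomized females, where the other 5 did not pass (limma), and Cps1 rose by 0.33 in intact females. With ovariectomy Cps1 differed by -0.62, Fgb by -0.41 and transthyretin (Ttr) by 0.42 under vehicle, and Cps1 by 0.42 under dexamethasone. The responses to dexamethasone differed by 1.04 for Cps1 and 0.62 for Fgb, and the part of these markers in the results was not tested. Differences that involve the intact vehicle libraries depended on transcript length. Among 668 genes with a transcript under 1000 bases, the median difference was 0.24 for dexamethasone in intact females and 0.23 for ovariectomy under vehicle. Among 2558 genes with a transcript over 5000 bases the same medians were -0.13 and -0.13. Dexamethasone in ovariectomized females gave -0.03 for the short transcripts and 0.03 for the long ones. Apoa2 (518 bases), Apoc1 (532 bases), Apoc3 (709 bases) and Apoc2 (727 bases) fall in the short class and Apob (13934 bases) in the long one. Differences of the 10 genes in those comparisons are therefore also given after a correction for transcript length and GC content, fitted within each library.

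Per kilobase of transcript, Apoa2 had the highest mean log2 level (19.16), followed by Apoe (18.94), Apoa1 (18.20), Apoc1 (17.62), Apoc3 (16.28), Apoa5 (14.45), Apoc2 (13.10), Apob (12.70), Apom (12.45) and Apoa4 (11.15). The 12-library ranges of neighbours in this order overlapped, except between Apoc1 and Apoc3, between Apoc3 and Apoa5 and between Apoa5 and Apoc2. Apoa2 exceeded Apoe in 11 of 12 libraries, and Apoc2 exceeded Apob in 9 of 12. Without the length correction, Apoe had the second highest mean log2 level of all symbols in the table, Apoa1 the fifth and Apoa2 the sixth.

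**Figure D1:**
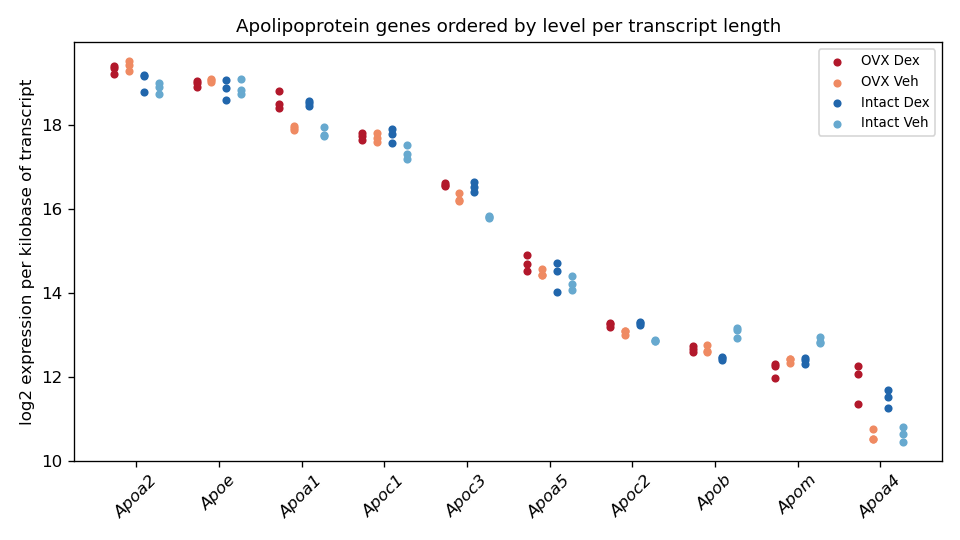
Log2 expression per kilobase of transcript (vertical axis) for the 10 genes, ordered by their mean, with 1 point per library and the 4 groups side by side. Apoa2, at a mean of 19.16, and Apoa4, at a mean of 11.15, stand at the ends of the order, and Apoa4 spreads most between groups.

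As a share of the linear sum over the table, the 10 genes together made up 5.69 to 6.14% in ovariectomized dexamethasone livers, 5.89 to 5.95% in ovariectomized vehicle livers, 5.34 to 6.43% in intact dexamethasone livers and 4.55 to 5.45% in intact vehicle livers. The ranges of the intact dexamethasone and intact vehicle livers overlapped. The range of the ovariectomized vehicle livers lay above that of the intact vehicle livers. These shares are not corrected for transcript length. After the length and GC correction none of the 10 genes passed higher with ovariectomy under vehicle.

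Upstream sequence is shown for 3 genes whose levels moved in different ways, Apoa1 and Apoa4, which were higher after dexamethasone in both gonadal states, and Apob, which was lower after it in intact females. RefSeq promoter windows (build GRCm38.p6, plus strand, 5′ to 3′) were trimmed to end just before the most upstream GENCODE protein-coding start inside them. The stretches therefore end 50 bases (Apoa1), 148 bases (Apoa4) and 29 bases (Apob) before the RefSeq start, and the bases in between are not shown. Capitals mark matches to CAAAGTNCA (core of the HNF4A site), AGGTCA (arm of many nuclear receptor sites), AGAACA (arm of the glucocorticoid receptor palindrome), TATAAA or TGTTTAC (forkhead), searched on both strands.
Apoa1, chr9:46228380-46228579: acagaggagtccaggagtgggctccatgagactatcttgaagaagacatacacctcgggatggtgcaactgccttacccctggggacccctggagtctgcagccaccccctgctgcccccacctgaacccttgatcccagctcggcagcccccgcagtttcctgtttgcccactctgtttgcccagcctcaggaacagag
Apoa4, chr9:46240594-46240695: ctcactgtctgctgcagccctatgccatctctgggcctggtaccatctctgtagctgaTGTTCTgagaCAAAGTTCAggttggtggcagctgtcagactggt
Apob, chr12:7977427-7977647: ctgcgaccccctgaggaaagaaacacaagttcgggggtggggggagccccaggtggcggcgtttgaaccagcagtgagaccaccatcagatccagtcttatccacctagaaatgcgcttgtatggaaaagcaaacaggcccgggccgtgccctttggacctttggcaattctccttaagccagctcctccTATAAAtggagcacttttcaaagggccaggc

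In the 102 bases shown for Apoa4, the match to AGAACA, read on the minus strand, ends 38 bases before the GENCODE start. That to CAAAGTNCA ends 25 bases before the same start, and the matches do not overlap. Of 32851 windows cut to that length, 7.16% held AGAACA and 0.426% held CAAAGTNCA. The 221 bases shown for Apob held TATAAA 25 bases before the GENCODE start and none of the other motifs. TATAAA was held anywhere by 9.99% of windows of that length. The 200 bases shown for Apoa1 held none of the motifs. The GENCODE start used for these distances lies upstream of the RefSeq start, by 148 bases for Apoa4 and 29 bases for Apob. These are matches of letters, not measured binding sites. RefSeq windows matched 8 of the 10 genes, and Apoc1 and Apoc3 had none in the table used.

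Dexamethasone in intact females raised 5 of the 10 genes and lowered 2. Apoa1, Apoa4, Apoc1, Apoc2 and Apoc3 were higher, by 1.33-fold to 1.80-fold, and Apob and Apom were lower, at 0.648 and 0.717 of the vehicle level. Apoa2, Apoa5 and Apoe did not pass. Of all genes tested, 22.8% were higher and 25.9% lower, 48.8% in either direction. Libraries of the 2 groups did not overlap for 7 of the 10 genes, 5 above vehicle and 2 below it, against 55.5% of all genes tested, 26.9% above and 28.6% below. The median difference was 0.30 over the 10 genes and 0.00 over all genes tested. Of the class with transcripts under 1000 bases, which holds Apoa2, Apoc1, Apoc2 and Apoc3, 49.4% were higher and 4.94% lower. Of the class over 5000 bases, which holds Apob, 12.5% were higher and 39.3% lower.

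In ovariectomized females dexamethasone raised 4 of the 10 genes, Apoa1, Apoa4, Apoc2 and Apoc3, by 1.14-fold to 2.44-fold. Apom was lower, at 0.856 of the vehicle level, and the other 5 genes did not pass. Of all genes tested, 21.3% were higher, 19.4% lower and 40.7% either. Libraries did not overlap for 5 of the 10 genes, 4 above vehicle and 1 below it, against 54.6% of all genes tested, 28.1% above and 26.5% below. The median difference was 0.11 over the 10 genes and 0.00 over all. Apoa1, Apoa4, Apoc2 and Apoc3 were thus higher in both dexamethasone comparisons, which 9.91% of all genes tested were, and Apom was lower in both, as were 10.6%.

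**Figure D2:**
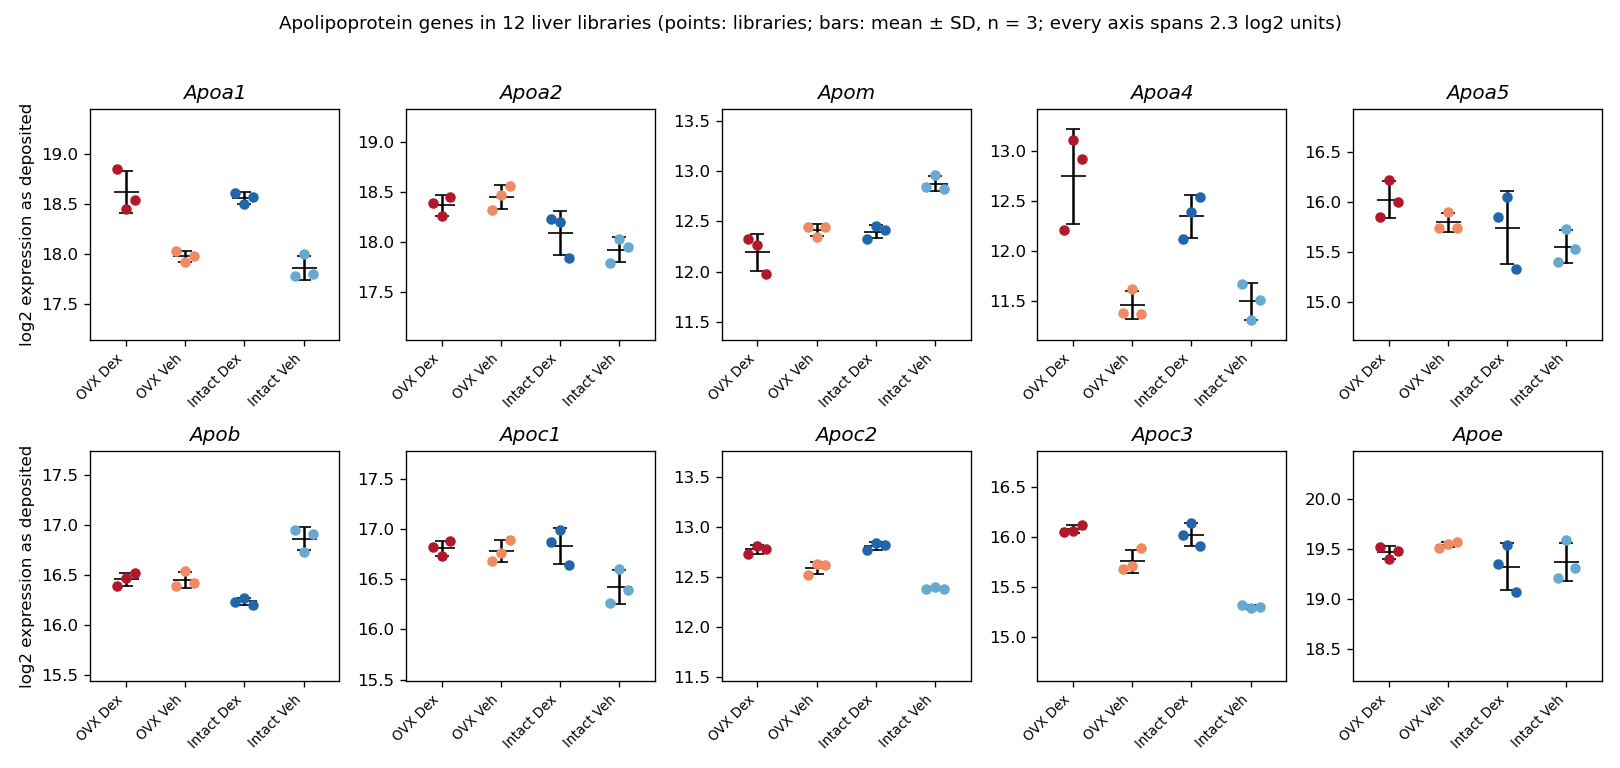
Log2 level as deposited (vertical axes, all of the same span) of each gene in the 12 liver libraries, from left to right ovariectomized dexamethasone, ovariectomized vehicle, intact dexamethasone and intact vehicle, with bars at the mean ± SD (n = 3). Apoa1 and Apoa4 are higher in both dexamethasone groups than in both vehicle groups, and the intact vehicle livers stand alone as highest for Apob and Apom and lowest for Apoc2 and Apoc3.

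Among the HDL proteins, Apoa1, the main structural protein of HDL and the activator of the esterifying enzyme Lcat, rose with dexamethasone in both gonadal states. Its levels were 18.85, 18.45 and 18.54 in ovariectomized dexamethasone livers, against 18.02, 17.92 and 17.98 in ovariectomized vehicle livers. In intact dexamethasone livers they were 18.61, 18.49 and 18.57, against 17.78, 17.99 and 17.80 in intact vehicle livers. Every dexamethasone library lay above every vehicle library. The difference was 0.64 ± 0.13 (SE; adjusted p = 0.00297, limma) in ovariectomized females, 1.56-fold, and 0.70 ± 0.13 (adjusted p = 0.00127) in intact females, 1.62-fold. The responses differed by -0.06 ± 0.19 (95% interval -0.47 to 0.35), turning to 0.17 after the length and GC correction. In that correction the differences were 0.69 in ovariectomized and 0.51 in intact females, both past the threshold.

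Apoa2, the second protein of HDL, did not pass with dexamethasone. Its levels were 18.39, 18.26 and 18.45 in ovariectomized dexamethasone livers and 18.32, 18.47 and 18.55 in ovariectomized vehicle livers. They were 18.23, 18.20 and 17.84 in intact dexamethasone livers and 17.79, 18.03 and 17.95 in intact vehicle livers. The dexamethasone and vehicle libraries overlapped in both gonadal states, while the ovariectomized libraries were above the intact ones under each treatment. The dexamethasone differences were -0.08 ± 0.14 (95% interval -0.40 to 0.23) in ovariectomized females, which passed with quantile normalization (-0.35) and turned to 0.02 with library weights, and 0.17 ± 0.14 (-0.14 to 0.48) in intact females, which passed with library weights (0.30) and turned to -0.06 after the length and GC correction.

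Apom, which carries the signalling lipid sphingosine-1-phosphate on HDL, was lower with dexamethasone. Its levels were 12.33, 12.27 and 11.98 in ovariectomized dexamethasone livers, against 12.45, 12.35 and 12.45 in ovariectomized vehicle livers. In intact dexamethasone livers they were 12.33, 12.45 and 12.41, against 12.85, 12.96 and 12.82 in intact vehicle livers. The intact vehicle libraries were above the other 9. The difference in intact females was -0.48 ± 0.08 (adjusted p = 0.000652, limma), and -0.64 after the length and GC correction. That in ovariectomized females, -0.23 ± 0.08 (adjusted p = 0.0475), was a borderline call. It was lost when any library was left out other than ovariectomized dexamethasone 1, ovariectomized dexamethasone 2 or intact vehicle 2, with adjusted p = 0.186 at the highest (-0.12, without ovariectomized dexamethasone 3). It was also lost after the length and GC correction (-0.19, adjusted p = 0.0755), with no filter on low values, with no variance trend, with only the libraries compared and with a replicate block (adjusted p = 0.0541). The responses differed by 0.25 ± 0.12 (adjusted p = 0.129), which passed after the length and GC correction (0.45, adjusted p = 0.0209) and without ovariectomized dexamethasone replicate 3 (0.36, adjusted p = 0.0183).

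Among the proteins of triglyceride-rich particles, Apoa4 gave the largest response of the 10 genes to dexamethasone. In the mouse it is made by the intestine and the liver and is found on chylomicrons and HDL. Its levels were 12.20, 13.10 and 12.92 in ovariectomized dexamethasone livers, against 11.38, 11.62 and 11.37 in ovariectomized vehicle livers. They were 12.11, 12.38 and 12.53 in intact dexamethasone livers, against 11.67, 11.31 and 11.51 in intact vehicle livers. All 6 dexamethasone libraries were above all 6 vehicle libraries, and the ovariectomized dexamethasone libraries spread widest, with replicate 1 well below the other two. The difference was 1.29 ± 0.19 (adjusted p = 0.000426, limma), 2.44-fold, in ovariectomized females and 0.85 ± 0.19 (adjusted p = 0.00377), 1.80-fold, in intact females. After the length and GC correction they were 1.34 (adjusted p = 0.000538) and 0.73 (adjusted p = 0.0145). The lowest value in intact females over the alternatives run was 0.63, with library weights (adjusted p = 0.00120). Of all genes tested, 1.34% changed by more in ovariectomized females and 4.15% in intact females.

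The 2 responses of Apoa4 differed by 0.44 ± 0.28 (95% interval -0.17 to 1.04; adjusted p = 0.262), which did not pass. Without ovariectomized dexamethasone replicate 1 the difference was 0.71 (adjusted p = 0.0201), which did, and with library weights it was 0.77 (adjusted p = 0.00657). Enterocytes are the other main source of Apoa4. Of 11 enterocyte markers, Sis, Alpi, Cdh17, Krt20, Cdx1 and Cdx2 were at or below 0 in every library, and Fabp2 and Lgals4 alone were high enough to be tested. Neither passed in any of the 5 comparisons, and the summed log2 level of the list was 10.74 to 11.11 in ovariectomized dexamethasone livers, 10.86 to 11.27 in ovariectomized vehicle livers, 10.94 to 11.07 in intact dexamethasone livers and 10.90 to 11.05 in intact vehicle livers. That sum was mostly Fabp2, at a mean of 10.88 against 7.25 for Lgals4, so it says little of the other markers. Antisense transcripts annotated as Gm10680 and Gm47528 hold 60.9% of the 50-base words of Apoa4. Whether the authors' counting used strand is not given in the sources used here, so reads of the partners cannot be told apart.

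Apoa5, a liver protein that promotes triglyceride clearance by lipoprotein lipase, did not pass in any comparison. Its levels were 15.85, 16.22 and 16.00 in ovariectomized dexamethasone livers, 15.74, 15.90 and 15.74 in ovariectomized vehicle livers, 15.85, 16.05 and 15.33 in intact dexamethasone livers and 15.40, 15.73 and 15.54 in intact vehicle livers. Intact dexamethasone replicate 3 was the lowest of all 12 libraries. Dexamethasone differences were 0.23 ± 0.16 (95% interval -0.13 to 0.58) in ovariectomized females and 0.19 ± 0.16 (-0.17 to 0.55) in intact females, or 0.13 (adjusted p = 0.534) after the length and GC correction. With library weights the difference in intact females was 0.32 (adjusted p = 0.0104), which passed. Without intact dexamethasone replicate 3 the difference in intact females was 0.39 (adjusted p = 0.0261, limma), which passed. An antisense transcript, Gm47544, holds 17.6% of its 50-base words.

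Apob responded to dexamethasone in intact females and not detectably in ovariectomized ones. It encodes the large protein around which the liver assembles VLDL and which remains on the particle as it becomes low-density lipoprotein. Its levels were 16.39, 16.47 and 16.52 in ovariectomized dexamethasone livers, against 16.39, 16.54 and 16.42 in ovariectomized vehicle livers. In intact dexamethasone livers they were 16.23, 16.27 and 16.20, against 16.95, 16.73 and 16.91 in intact vehicle livers. The intact vehicle libraries were the 3 highest and the intact dexamethasone libraries the 3 lowest, and both ovariectomized groups lay between them and overlapped.

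The fall of Apob in intact females was -0.63 ± 0.09 (adjusted p = 0.000152, limma), and it was -0.45 after the length and GC correction. In ovariectomized females the difference was 0.01 ± 0.09 (95% interval -0.18 to 0.20). That sign turned with quantile normalization (-0.27, adjusted p = 0.0137, a call), with recentring (-0.02) and after the length and GC correction (-0.03). The difference between the responses was 0.64 ± 0.12 (adjusted p = 0.0040), so the response of ovariectomized females was higher than that of intact females. The same test passed for 3 of the 10 genes, Apob higher and Apoc2 and Apoc3 lower, against 24.9% of all genes tested, 15.3% higher and 9.65% lower. The median difference between responses was -0.05 over the 10 genes and 0.01 over all. The difference was 0.42 (adjusted p = 0.0261) after the length and GC correction, and 0.24 (adjusted p = 0.128) with quantile normalization, which ended the call.

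Of the C proteins, Apoc3, an inhibitor of lipoprotein lipase and of particle uptake, rose with dexamethasone in both gonadal states. Its levels were 16.05, 16.06 and 16.12 in ovariectomized dexamethasone livers, against 15.68, 15.70 and 15.89 in ovariectomized vehicle livers. They were 16.02, 16.13 and 15.90 in intact dexamethasone livers, against 15.32, 15.28 and 15.30 in intact vehicle livers. The intact vehicle libraries were the 3 lowest and almost equal, and both dexamethasone groups were above both vehicle groups. The difference was 0.32 ± 0.08 (adjusted p = 0.00818, limma), 1.25-fold, in ovariectomized females and 0.72 ± 0.08 (adjusted p = 4.09e-05), 1.65-fold, in intact females, where it was 0.49 after the length and GC correction.

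Apoc2, the cofactor that lipoprotein lipase needs and so the functional counterpart of Apoc3, moved the same way. Its levels were 12.73, 12.82 and 12.78 in ovariectomized dexamethasone livers, against 12.52, 12.63 and 12.62 in ovariectomized vehicle livers. They were 12.77, 12.84 and 12.82 in intact dexamethasone livers, against 12.38, 12.40 and 12.39 in intact vehicle livers. The dexamethasone libraries were again above the vehicle ones in each state. The difference was 0.19 ± 0.05 (adjusted p = 0.00811, limma) in ovariectomized females and 0.42 ± 0.05 (adjusted p = 3.92e-05) in intact females, or 0.22 and 0.19 after the length and GC correction. A same-strand gene model, Gm44805, holds 88.2% of the 50-base words of Apoc2, so the authors' counting may have split or dropped its reads and its values are uncertain.

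The responses of both genes were smaller in ovariectomized than in intact females, and neither of these calls held after the length and GC correction. The difference between responses was -0.40 ± 0.11 (adjusted p = 0.0253, limma) for Apoc3 and -0.23 ± 0.07 (adjusted p = 0.0241) for Apoc2. After the correction they were -0.14 (adjusted p = 0.402) for Apoc3 and 0.04 (adjusted p = 0.770) for Apoc2. The median difference between responses was -0.27 over the short transcripts and 0.17 over the long ones. The call for Apoc3 was also lost without ovariectomized dexamethasone replicate 1 or 2, ovariectomized vehicle replicate 3, intact dexamethasone replicate 1 or intact vehicle replicate 3 (adjusted p = 0.0554 at the highest). That for Apoc2 was lost without ovariectomized dexamethasone replicate 1, ovariectomized vehicle replicate 3 or intact vehicle replicate 1 or 3 (0.0532 at the highest).

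Apoc1, which slows the uptake of remnant particles, passed in intact females and not in ovariectomized ones. Its levels were 16.82, 16.73 and 16.88 in ovariectomized dexamethasone livers and 16.68, 16.77 and 16.89 in ovariectomized vehicle livers, which overlapped. They were 16.87, 17.00 and 16.64 in intact dexamethasone livers, against 16.26, 16.60 and 16.40 in intact vehicle livers, which did not. The differences were 0.03 ± 0.12 (95% interval -0.23 to 0.28) in ovariectomized females, turning to a call of -0.34 (adjusted p = 0.0302) with quantile normalization, and 0.41 ± 0.12 (adjusted p = 0.0120, limma) in intact females. The value in intact females was 0.15 (adjusted p = 0.210) after the length and GC correction and 0.34 (adjusted p = 0.0560) without intact vehicle replicate 1. The responses differed by -0.39 ± 0.17 (adjusted p = 0.106), which did not pass except with quantile normalization (-0.83), with library weights (-0.37) and without intact dexamethasone replicate 3 (-0.48, adjusted p = 0.0423).

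Apoe, a ligand by which remnant particles are taken up, did not pass in any comparison. Its levels were 19.53, 19.40 and 19.48 in ovariectomized dexamethasone livers, 19.52, 19.55 and 19.57 in ovariectomized vehicle livers, 19.35, 19.55 and 19.08 in intact dexamethasone livers and 19.22, 19.59 and 19.31 in intact vehicle livers. The groups overlapped in every comparison, and intact dexamethasone replicate 3 was the lowest library. Dexamethasone differences were -0.08 ± 0.18 (95% interval -0.47 to 0.31) in ovariectomized females and -0.05 ± 0.18 (-0.44 to 0.34) in intact females, where the value was -0.22 (adjusted p = 0.293) after the length and GC correction and the sign turned with library weights (0.03). Macrophages also make Apoe. The 13 Kupffer cell and macrophage markers had a summed log2 level of 13.54 to 13.91 in ovariectomized dexamethasone livers, 13.77 to 14.01 in ovariectomized vehicle livers, 13.99 to 14.11 in intact dexamethasone livers and 14.20 to 14.27 in intact vehicle livers, and none was at 0. With dexamethasone 6 of them were lower and 1 higher in ovariectomized females, and 4 lower in intact females. Their part in the level of Apoe was not tested.

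**Figure D3:**
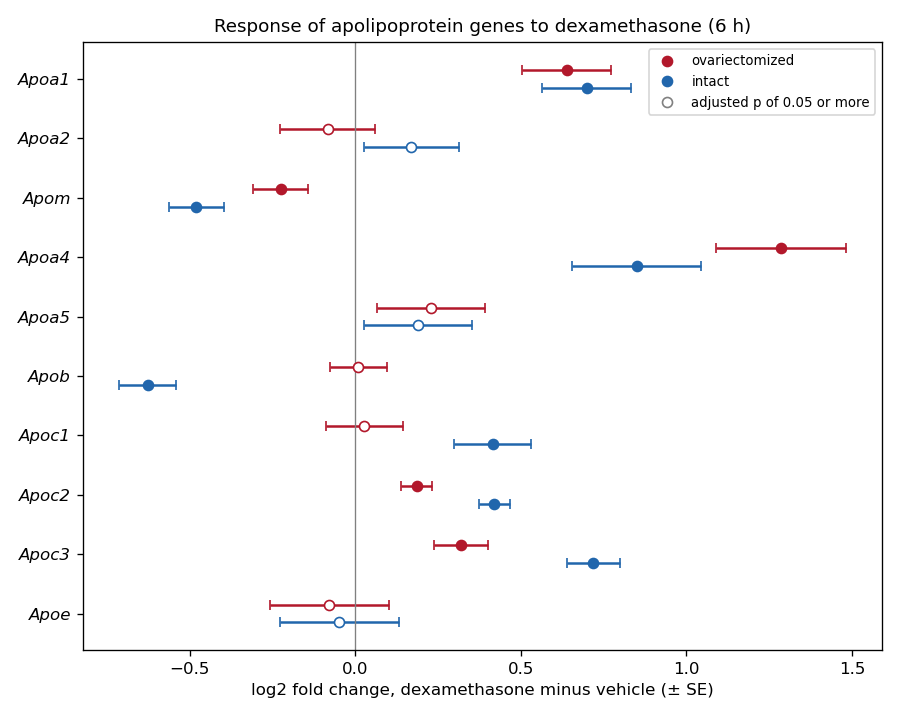
Log2 fold change of each gene, dexamethasone minus vehicle (horizontal axis, with SE), in ovariectomized (upper point of each pair) and intact (lower point) females, open where the adjusted p was 0.05 or more. Apoa1, Apoa4, Apoc2 and Apoc3 lie right of 0 and Apom left of 0 in both states, and Apob lies at 0.01 in ovariectomized and -0.63 in intact females.

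Ovariectomy under vehicle asks how gonadal state alone set the same genes. It raised 4 of the 10, Apoa2, Apoc1, Apoc2 and Apoc3, and lowered 2, Apob and Apom. Of all genes tested, 12.4% were higher, 15.5% lower and 27.9% either. Libraries did not overlap for 7 of the 10, 5 above the intact ones and 2 below them, against 45% of all genes tested, 20.7% above and 24.4% below. The median difference was 0.19 over the 10 genes and -0.01 over all. The 4 genes that rose are the 4 with transcripts under 1000 bases, a class of which 43.9% were higher and 2.40% lower. After the length and GC correction none of the 10 passed higher, and Apob and Apom still passed lower.

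Apoc3 differed by 0.46 ± 0.08 (adjusted p = 0.00233, limma), or 0.20 (adjusted p = 0.0916) after that correction. Apoa2 differed by 0.53 ± 0.14 (adjusted p = 0.0184), or 0.30 (adjusted p = 0.142) after it, and its call was also lost without ovariectomized vehicle replicate 2 or 3 or intact vehicle replicate 1, with adjusted p = 0.0805 at the highest. Apoc2 differed by 0.20 ± 0.05 (adjusted p = 0.00912), turning to -0.06 after the correction. Apoc1 differed by 0.36 ± 0.12 (adjusted p = 0.0395), or 0.09 (adjusted p = 0.556) after it. The call for Apoc1 was lost without any of 8 libraries, which were ovariectomized dexamethasone 1 and 3, ovariectomized vehicle 1, 2 and 3, intact dexamethasone 1 and intact vehicle 1 and 3 (adjusted p = 0.155 at the highest). It was also lost with no filter, with a replicate block and with only the libraries compared.

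Apob, a long transcript, differed by -0.41 ± 0.09 (adjusted p = 0.00528, limma) with ovariectomy under vehicle, 0.751 of the intact level, and by -0.26 (adjusted p = 0.0467) after the length and GC correction. Apom, at 1013 bases just outside the short class, differed by -0.46 ± 0.08 (adjusted p = 0.00251), and by -0.65 (adjusted p = 0.000694) after it. Apoa1 (0.12 ± 0.13), Apoa4 (-0.04 ± 0.19), Apoa5 (0.24 ± 0.16) and Apoe (0.17 ± 0.18) did not pass (the sign of Apoa4 turned without ovariectomized vehicle replicate 1 or 3 or intact vehicle replicate 1), and the signs of Apoa1 and Apoe turned after the correction (-0.10 and -0.03), where Apoa4 had -0.19 and Apoa5 0.16. The ovariectomized vehicle libraries of Apoa5 were nonetheless all above the intact ones. Of the 13 Kupffer cell and macrophage markers, 7 were lower and none higher in this comparison, and their part in these results was not tested.

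This comparison shares the intact vehicle libraries with that of dexamethasone in intact females. Side by side, the vehicle ovariectomy and intact dexamethasone differences were -0.41 and -0.63 for Apob, -0.46 and -0.48 for Apom, 0.46 and 0.72 for Apoc3, 0.20 and 0.42 for Apoc2 and 0.36 and 0.41 for Apoc1. Because both are taken from the same 3 libraries, the likeness is not an independent result.

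Under dexamethasone none of the 10 genes passed for ovariectomy in limma, where 7.74% of all genes tested were higher, 5.08% lower and 12.8% either. At an unadjusted p under 0.05 there was 1 higher, Apob (0.22 ± 0.09; adjusted p = 0.104), and 1 lower, Apom (-0.21 ± 0.08; adjusted p = 0.112). Libraries did not overlap for 2 of the 10, Apoa2 and Apob, both higher as deposited and both turning with quantile normalization (-0.09 and -0.04), against 34.1% of all genes tested and 19.5% in that direction. The median difference was 0.10 over the 10 genes and 0.02 over all. Apoa4 differed by 0.40 ± 0.19 (adjusted p = 0.185), and by 0.67 (adjusted p = 0.0220) without ovariectomized dexamethasone replicate 1. The higher share of all calls in this comparison was 60.4% as deposited and 48.2% after recentring every library to the same median.

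**Figure D4:**
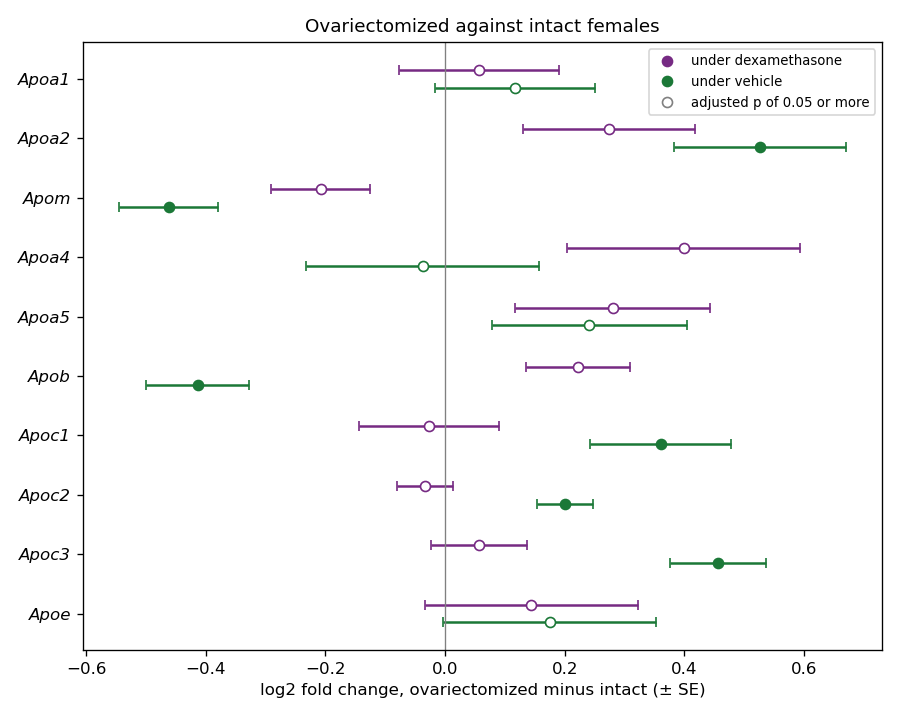
Log2 fold change of each gene, ovariectomized minus intact (horizontal axis, with SE), under dexamethasone (upper point of each pair) and under vehicle (lower point), open where the adjusted p was 0.05 or more. No point is filled under dexamethasone, and Apob lies at 0.22 under dexamethasone and -0.41 under vehicle.

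Over all 5 comparisons, 8 of the 10 genes passed in at least 1 and Apoa5 and Apoe in none, against 71.5% of all genes tested that passed in at least 1. By position, Apoa1, Apoc3, Apoa4 and Apoa5 are neighbours in that order on chromosome 9, and Apoc2, Apoc4, Apoc1 and Apoe are neighbours on chromosome 7. On chromosome 9 Apoa1, Apoc3 and Apoa4 rose with dexamethasone in both states, while Apoa5 had 0.23 in ovariectomized and 0.19 in intact females. On chromosome 7 Apoc2 rose in both states, and Apoc1 and Apoc4 passed higher in intact females only. Apoc1 had 0.41 there, or 0.15 and no call after the length and GC correction, and 0.03 in ovariectomized females. For Apoc4 in intact females the corrected value is not reported here. Apoe had -0.08 in ovariectomized and -0.05 in intact females. Apoa2 lies on chromosome 1, Apob on 12 and Apom on 17.

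Apoa4 had the widest span of group means, 1.29 log2 units. Deviations over the 12 libraries were compared with its own for the other genes tested, with clone and locus symbols (Gm, Rik or LOC) passed over. The 5 closest were Cyp4f17 (root mean square difference 0.20), Lad1 (0.20), Baiap2l1 (0.20), Hopx (0.21) and Nedd4l (0.22). They were chosen for that likeness, so their rise with dexamethasone follows from the choice and is a description. Hopx, a homeodomain-only protein, rose by 1.39 ± 0.12 in ovariectomized and 0.93 ± 0.12 in intact females. Cyp4f17, a cytochrome P450, rose by 1.34 ± 0.13 in ovariectomized females and 0.83 ± 0.13 in intact females. Nedd4l, a ubiquitin ligase, rose by 1.05 ± 0.10 in ovariectomized females and 0.99 ± 0.10 in intact females. Among the other 9 apolipoproteins the closest were Apoa1 (0.41) and Apoc3 (0.42), and the farthest was Apom (0.81).

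Other genes of the lipoprotein pathway give the setting. Counts in these lists are read against the shares of all genes tested that passed, which were 21.3% higher and 19.4% lower with dexamethasone in ovariectomized females, 22.8% higher and 25.9% lower in intact females, and 15.3% higher, 9.65% lower and 24.9% either way in the difference between responses. Of 10 further apolipoprotein genes tested, dexamethasone lowered 3 and raised none in ovariectomized females (at an unadjusted p under 0.05, 3 and 0, limma), and lowered 4 and raised 2 in intact females, where 4 were higher with quantile normalization. Their median difference was -0.03 in ovariectomized females and -0.02 in intact females. Apol7a fell by 1.35 ± 0.24 in ovariectomized and by 1.07 ± 0.24 in intact females on the log2 scale. Apol9a (-1.49 in ovariectomized, -1.23 in intact females) and Apol9b (-1.40 in ovariectomized, -1.27 in intact females) fell as well, but they are near-identical copies whose reads the authors' counting could have split. Clu, an extracellular chaperone also found on HDL, fell by 0.55 ± 0.12 in intact females. The 2 raised in intact females were Apoc4 and Apoo. Apoc4 had 14.58, 14.67 and 14.36 in intact dexamethasone livers, against 14.08, 14.32 and 14.13 in intact vehicle livers. In the other 3 comparisons 1 call was made, Apoc4 (0.35 with ovariectomy under vehicle, a call lost after the length and GC correction, at 0.04, and without intact vehicle replicate 1). None passed for ovariectomy under dexamethasone or for the difference between responses, where 4 and 2 had an unadjusted p under 0.05. In the difference 1 was higher without intact vehicle 1, 2 were lower without intact dexamethasone 3 and 1 was lower without intact vehicle 2.

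Of 16 genes tested that edit Apob RNA or assemble VLDL, 8 differed in their response between gonadal states. Among the 16, dexamethasone raised 5 and lowered 2 in ovariectomized females, and raised none and lowered 6 in intact females, where 0 higher and 8 lower had an unadjusted p under 0.05. The difference between responses was higher in ovariectomized females for 8 of 16 and lower for none, where 10 higher and 1 lower had an unadjusted p under 0.05 (limma). With quantile normalization these calls were 5 higher and 1 lower, and after the length and GC correction again 8 and 0. The count of 8 was 5 after recentring, with no variance trend, with the replicate block and without any 1 of 6 libraries, which were ovariectomized dexamethasone 3, ovariectomized vehicle 1, 2 and 3, intact dexamethasone 1 and intact vehicle 3. With each of the 12 libraries left out in turn the count ran from 5 to 7, so none of these fits gave 8. Without intact dexamethasone 3 or intact vehicle 2 there was 1 lower. The 2 lowered in ovariectomized females were 1 without ovariectomized dexamethasone 1 or ovariectomized vehicle 3. The median of that difference was 0.23 over the list and 0.01 over all genes tested. The catalytic editing enzyme Apobec1 had -0.00 ± 0.06 in ovariectomized and 0.07 ± 0.06 in intact females and did not pass.

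A1cf, the RNA-binding partner of Apobec1, had levels of 10.82, 11.33 and 11.20 in ovariectomized dexamethasone livers, against 11.18, 11.33 and 11.18 in ovariectomized vehicle livers. It had 10.57, 10.71 and 10.59 in intact dexamethasone livers, against 11.98, 11.61 and 11.96 in intact vehicle livers. As with Apob, the intact vehicle libraries were highest and the intact dexamethasone ones lowest. The fall was -1.23 ± 0.13 (adjusted p = 2.30e-05, limma) in intact females, the value in ovariectomized females was -0.12 ± 0.13 (adjusted p = 0.483), and the responses differed by 1.11 ± 0.18 (adjusted p = 0.00164).

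Mia2, needed to load large cargo for export from the endoplasmic reticulum, rose in ovariectomized and fell in intact females. Its levels were 9.37, 9.52 and 9.58 in ovariectomized dexamethasone livers, against 8.98, 9.17 and 8.84 in ovariectomized vehicle livers. They were 8.67, 8.76 and 8.75 in intact dexamethasone livers, against 10.54, 9.96 and 10.40 in intact vehicle livers. The groups did not overlap in either state, with differences of 0.49 ± 0.13 (adjusted p = 0.0105, limma) in ovariectomized females and -1.57 ± 0.13 (adjusted p = 6.69e-06) in intact females. Sec24d, a subunit of the coat of export vesicles, rose by 1.06 ± 0.06 in ovariectomized females and had 0.10 in intact ones. Mttp, which loads lipid onto the Apob protein, had 0.09 ± 0.12 in ovariectomized and -0.34 ± 0.12 (adjusted p = 0.0302) in intact females. That call was lost after the length and GC correction (-0.22), with quantile normalization, with no filter and without intact dexamethasone 1 or 3 or intact vehicle 1 or 3.

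Of 16 receptor and uptake genes, dexamethasone raised 4 and lowered 5 in ovariectomized females and raised 4 and lowered 10 in intact females. The receptor list had a median difference of -0.01 in ovariectomized females and -0.25 in intact females. Differences in intact females depended on transcript length, with 39.3% of genes over 5000 bases lower. The counts of this list after the length and GC correction are not reported here. Sort1, a sorting receptor for the Apob protein, fell by 1.36 ± 0.08 in ovariectomized females and by 1.06 ± 0.08 in intact females. Lrp1, a remnant receptor, had 0.04 in ovariectomized females and fell by 0.85 ± 0.06 in intact ones, a difference of 0.89 ± 0.09 (adjusted p = 0.000286).

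Of 15 genes of HDL formation and plasma remodelling, dexamethasone raised 4 and lowered none in ovariectomized females, where 4 higher and 1 lower had an unadjusted p under 0.05 and 1 lower passed without ovariectomized vehicle 2 (limma). It raised 4 and lowered 5 in intact females (5 and 2 with quantile normalization). Medians of this list were 0.15 in ovariectomized females and -0.17 in intact females. Abca1, the transporter that loads lipid onto Apoa1 protein, rose by 0.38 ± 0.10 (adjusted p = 0.0088) in ovariectomized females and fell by 0.38 ± 0.10 (adjusted p = 0.0075) in intact females, where the call was lost with quantile normalization (-0.27) and after the length and GC correction (-0.19). Lcat, which esterifies HDL cholesterol, had 0.17 ± 0.08 (adjusted p = 0.103) in ovariectomized females and -0.17 ± 0.08 (adjusted p = 0.0880) in intact females, where the sign turned with quantile normalization (0.0017). After the length and GC correction Lcat passed in both states (limma). It had 0.21 (adjusted p = 0.0391) in ovariectomized females and -0.31 (adjusted p = 0.00529) in intact females there. Both calls were also made with library weights and with the replicate block. Hepatic lipase, Lipc, had -0.13 ± 0.09 in ovariectomized females and fell by 0.31 ± 0.09 (adjusted p = 0.0146) in intact females, a call lost with quantile normalization (-0.20). Angptl4, an inhibitor of lipoprotein lipase, rose by 1.08 ± 0.20 (adjusted p = 0.00164) in ovariectomized females and had 0.43 ± 0.20 (adjusted p = 0.101) in intact females, where the libraries overlapped. Its responses differed by 0.65 ± 0.29 (adjusted p = 0.119), which did not pass.

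Of 30 transcription factors known to act on apolipoprotein genes, dexamethasone raised 7 and lowered 6 in ovariectomized females and raised 3 and lowered 12 in intact females. With quantile normalization these were 5 and 7 in ovariectomized females and 5 and 11 in intact females. The 3 raised in intact females were 5 without intact dexamethasone 2 and 8 with library weights, which also raised 11 in ovariectomized females. The regulators had a median difference of 0.03 in ovariectomized females and -0.12 in intact females. Hnf4a, a master regulator of hepatic apolipoprotein genes, had levels of 14.53, 14.40 and 14.54 in ovariectomized dexamethasone livers, against 13.64, 13.78 and 13.62 in ovariectomized vehicle livers. It had 13.84, 13.77 and 14.09 in intact dexamethasone livers and 13.96, 13.82 and 14.00 in intact vehicle livers. The ovariectomized dexamethasone libraries were above the other 9, with a difference of 0.81 ± 0.09 (adjusted p = 5.22e-05, limma). Intact females had -0.02 ± 0.09, turning to 0.11 with quantile normalization and 0.04 after the length and GC correction.

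Ppara, the fatty acid sensor, fell by 0.45 ± 0.11 (adjusted p = 0.00651, limma) in ovariectomized and by 1.20 ± 0.11 (adjusted p = 1.06e-05) in intact females. Srebf1, which drives lipid synthesis, fell by 0.98 ± 0.20 in ovariectomized females and by 1.30 ± 0.20 in intact females. Nr0b2, a repressor of nuclear receptors, fell by 0.85 ± 0.22 in ovariectomized females and by 1.37 ± 0.22 in intact females. Nr1h4, the bile acid receptor, had 0.09 ± 0.07 in ovariectomized females and 0.14 ± 0.07 in intact females and did not pass. In intact females Nr1h4 did pass with quantile normalization (0.26, adjusted p = 0.00662, limma) and with library weights (0.17, adjusted p = 0.00644). It also passed there in 1 of the 12 fits with a library left out (adjusted p = 0.0247). The difference between responses was higher in ovariectomized females for 10 of the 30 and lower for 2, or 4 lower without intact dexamethasone 3, with quantile normalization or with library weights.

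**Figure D5:**
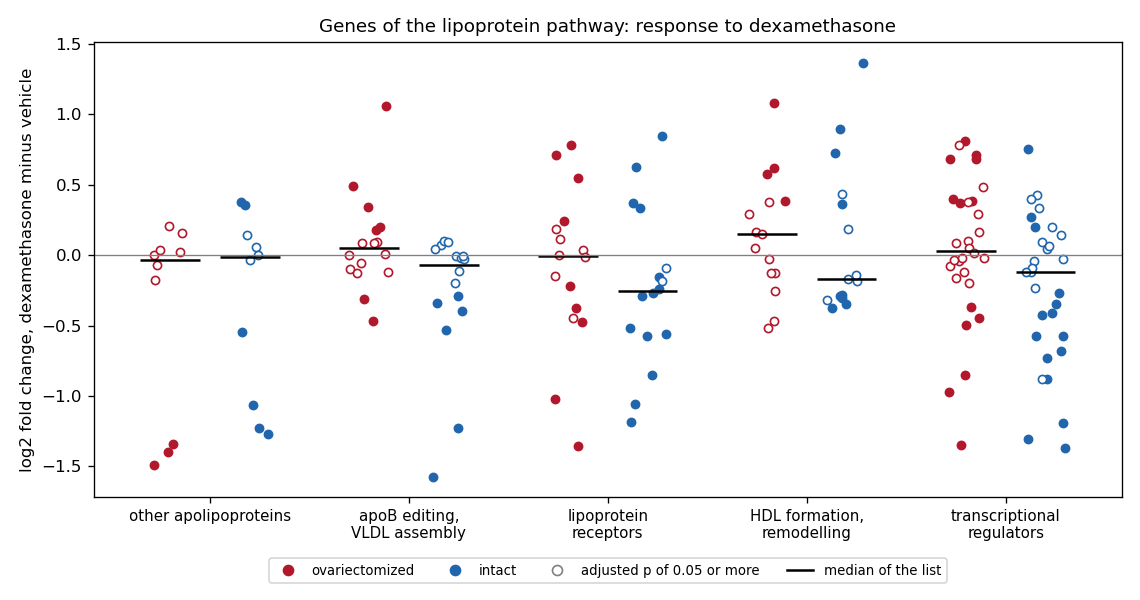
Log2 fold change, dexamethasone minus vehicle (vertical axis), of each tested gene of the 5 pathway lists, ovariectomized left of intact, filled where the adjusted p was under 0.05, with a bar at each list's median. In the list of Apob editing and VLDL assembly the median is 0.05 in ovariectomized and -0.07 in intact females.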

How the data were processed

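For 12 libraries, liver RNA was extracted with Trizol and RNeasy columns, prepared with a TruSeq kit and sequenced on a NextSeq500, per the labels' protocols. The submitters' processing notes name Trim Galore, TopHat2, HTSeq, DESeq, DESeq2 and the mouse build mm9. The authors deposited 1 table of log2 values, derived from reads counted per gene and scaled across libraries. Its exact transformation and gene annotation are not stated in the sources used here. It holds no read numbers and the depth is unknown, so there is no counting interval, and fold changes of low genes may be understated.

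For 392 symbols with several rows the row with the highest mean was kept. Genes with a mean of at least 4 were fitted in limma 3.58.1 under R 4.3.3 (4 group means, eBayes with a variance trend, 8 residual degrees of freedom), and p-values were adjusted by Benjamini-Hochberg over all of them. The 5 comparisons were dexamethasone in each gonadal state, ovariectomy with each treatment, and ovariectomized minus intact response. The fit was tested on simulated data, with 50 genes changed at each size among 12965. Changes of 0.5 were recovered for 60 to 74% of genes in the 4 group comparisons and 38% in the difference between responses. For changes of 0.3 the shares were 26 to 42% and 18%. Far fewer genes changed there than passed here, so these shares need not hold for the data.

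Alternatives were no filter or a minimum mean of 6, adding a pseudocount of 8, recentring, quantile normalization, summed rows, a correction for length and GC content within each library (splines with 4 degrees of freedom, values for 95.8% of the genes tested), no variance trend, library weights, a replicate block, only the libraries compared, and leaving out each library.

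The 10 genes and the lists were chosen with earlier results of these data known. The rule for names took all 10 genes in every comparison and, of each list, the largest changes that passed, up to 4 per comparison, with Mttp, Apobec1, A1cf, Lipc, Lcat, Abca1, Ppara, Hnf4a and Nr1h4 whatever their value; some of these are described, and some genes the rule takes are not reported here. Transcript lengths, overlaps, 50-base words and gene order come from GENCODE M21 and upstream sequences from RefSeq windows of GRCm38.p6. These builds differ from the authors' and served for lengths, neighbours and the sequences shown. Of 6 adipocyte markers, 4 were at or below 0 in every library and Fabp4, the 1 tested, was higher with dexamethasone in intact females.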

Additional observations from a re-analysis of the deposited data

Results flagged for a closer look

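The response to dexamethasone differed between ovariectomized and intact females, by limma's test of the difference itself, for 3 of the 10 apolipoprotein genes, against 24.9% of all genes tested. Apob had 0.01 in ovariectomized and -0.63 in intact females, a difference of 0.64 ± 0.12 (adjusted p = 0.0040). Apoc2 had 0.19 in ovariectomized and 0.42 in intact females, a difference of -0.23 ± 0.07 (adjusted p = 0.0241), and Apoc3 had 0.32 in ovariectomized and 0.72 in intact females, a difference of -0.40 ± 0.11 (adjusted p = 0.0253). After the length and GC correction the calls of Apoc2 (0.04, adjusted p = 0.770) and Apoc3 (-0.14, adjusted p = 0.402) were lost. That of Apob was lost with quantile normalization (0.24, adjusted p = 0.128).

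The same test passed for genes named from the lists, whose responses are given in brackets where not given above, ovariectomized and then intact. In Apob editing and VLDL assembly the differences were 1.11 for A1cf, 0.43 ± 0.10 for Cideb (-0.10 in ovariectomized and -0.53 in intact females), 2.06 ± 0.18 for Mia2 and 0.95 ± 0.09 for Sec24d. Among receptors they were 0.89 for Lrp1, 0.48 ± 0.10 for the HDL receptor Scarb1 (0.24 and -0.24), 0.47 ± 0.15 for Sdc1 (0.19 and -0.29) and -0.39 ± 0.11 for Stab2 (-0.01 and 0.37). In HDL formation and remodelling they were 0.76 ± 0.14 for Abca1, 0.34 ± 0.11 for Lcat, 0.34 ± 0.09 for Pon3 (0.05 and -0.29) and -1.88 ± 0.53 for Gm6484, the older symbol of Angptl8 (-0.52 and 1.36). Among regulators they were 0.84 ± 0.12 for Hnf4a, 0.86 ± 0.17 for Foxo3 (-0.02 and -0.88), 0.75 ± 0.15 for Ppara, 0.82 ± 0.11 for Srebf2 (0.40 and -0.42) and 1.66 ± 0.49 for Esr1 (0.78 and -0.88).

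Several of these calls rested on a processing choice or on single libraries. With no filter on low values those of Esr1 (adjusted p = 0.113), Lcat (0.0886), Sdc1 (0.101), Stab2 (0.0737) and Gm6484 (0.0947) were lost. With quantile normalization those of Lcat (0.11, adjusted p = 0.480), Sdc1 (0.26, adjusted p = 0.273) and Pon3 (0.22, adjusted p = 0.0950) were lost. The call of Lcat was also lost after recentring (0.31, adjusted p = 0.0595), and that of Esr1 after the length and GC correction (1.46, adjusted p = 0.0629). By library, those of Esr1, Lcat and Sdc1 were each lost without any of 8 libraries. The exceptions were ovariectomized dexamethasone 2, intact dexamethasone 1 and 3 and intact vehicle 2 for Esr1, intact dexamethasone 2 and 3, ovariectomized vehicle 2 and intact vehicle 3 for Lcat, and ovariectomized dexamethasone 2, intact dexamethasone 3, ovariectomized vehicle 3 and intact vehicle 1 for Sdc1. Stab2 lost its call without ovariectomized dexamethasone 1 or 3, intact dexamethasone 1, ovariectomized vehicle 1 or intact vehicle 3. Gm6484 lost it without ovariectomized dexamethasone 2, ovariectomized vehicle 3 or intact vehicle 1, and Pon3 without intact dexamethasone 1 or ovariectomized vehicle 1. The highest adjusted p with a library left out was 0.103, for Lcat.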

How the results depend on the processing

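Apoa1, Apoa4, Apoc2 and Apoc3 kept their dexamethasone calls in both gonadal states, and Apob and Apom theirs in intact females, under every alternative run. With no filter on low values, no apolipoprotein was lower with dexamethasone in ovariectomized females (1 as reported), and 822 of all genes differed with ovariectomy under dexamethasone (1662). The count of 0 lower apolipoproteins was also found with no variance trend, after the length and GC correction, with only the libraries compared (where 601 genes differed with ovariectomy under dexamethasone) and with the replicate block. Correlations of same-numbered deviations ran from -0.23 to 0.40, so the numbers were not taken to pair samples. The block moved 1 other apolipoprotein call, Apoc1 with ovariectomy under vehicle (adjusted p = 0.05003, limma).

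After the length and GC correction, 2310 genes differed with ovariectomy under vehicle (3618 as reported) and 0 apolipoproteins were higher. The difference between responses was higher for 2 apolipoproteins and lower for 0. Among all calls after this correction, 47.5% were higher with ovariectomy under vehicle and 61.2% in the difference. Signs turned for Apoa2 (-0.065) and Hnf4a (0.035) with dexamethasone in intact females, Apob (-0.032) in ovariectomized females, Apoa1 (-0.10), Apoc2 (-0.058) and Apoe (-0.031) with ovariectomy under vehicle, and Apoa1 (0.17), Apoc2 (0.036) and Apoe (0.21) in the difference between responses. With recentring, Apob turned to -0.015 in ovariectomized females.

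With quantile normalization, 4 apolipoproteins were lower with dexamethasone in ovariectomized females, 768 genes and 2 lower apolipoproteins (Apoc2 and Apom) passed for ovariectomy under dexamethasone, and the difference between responses was higher for 0 and lower for 4. Signs turned for Apob (-0.27) and Apoc1 (-0.34) with dexamethasone in ovariectomized females, Lcat (0.0017) and Hnf4a (0.11) in intact females, Apoa5 (-0.12) in the difference, and Apoa2 (-0.094), Apob (-0.041), Apoc3 (-0.15), Lipc (-0.036) and Nr1h4 (-0.091) with ovariectomy under dexamethasone.

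With library weights, 5919 genes differed with ovariectomy under vehicle, 5777 under dexamethasone (2 apolipoproteins higher and 1 lower) and 6659 in the difference between responses (3234 as reported; 2 apolipoproteins higher). Signs turned for Apoe (0.031) with dexamethasone in intact and Apoa2 (0.022) in ovariectomized females, Apoa1 (-0.011) and Apoc2 (0.0025) with ovariectomy under dexamethasone, and Apoa5 (-0.058) in the difference.

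With single libraries left out, genes called ran from 207 to 1852 for ovariectomy under dexamethasone (922, 993 and 207 without ovariectomized dexamethasone 1, 2 and 3, and 312 without intact dexamethasone 1) and from 2215 to 3989 under vehicle (2215 without intact vehicle 1). Lower apolipoproteins with dexamethasone in ovariectomized females ran from 0 to 1, higher ones with ovariectomy from 0 to 1 under dexamethasone and from 2 to 4 under vehicle, and those in the difference between responses from 1 to 2 higher and from 0 to 3 lower. Values near 0 that changed sign ran, with dexamethasone in ovariectomized females, from -0.021 to 0.056 for Apob, -0.021 to 0.084 for Apoc1, -0.051 to 0.036 for Apobec1, -0.22 to 0.033 for A1cf and -0.0087 to 0.20 for Mttp, and in intact females from -0.16 to 0.077 for Apoe and -0.12 to 0.042 for Hnf4a. With ovariectomy they ran from -0.061 to 0.14 for Apoa1, -0.12 to 0.054 for Apoc1, -0.019 to 0.20 for Lipc and -0.028 to 0.086 for Nr1h4 under dexamethasone, and -0.13 to 0.050 for Apoa4 under vehicle. In the difference between responses they ran from -0.18 to 0.022 for Apoa1, -0.17 to 0.19 for Apoa5 and -0.15 to 0.079 for Apoe.

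The cause of these changes was not tested. Depth is unknown, so precision rests on 3 libraries a group.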
